A study of Mus musculus with 8 samples.

Results

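The transcripts examined were those of 6 genes that mark the club cell, Scgb1a1, Scgb3a1, Scgb3a2, Hp, Cyp2f2 and Cbr2. They were taken by symbol out of the 22756 genes counted in each library. All 6 were among the 7190 genes that were tested, whose counts averaged 200 or more over the libraries. The libraries were made from the distal lung of adult mice of a strain background that was more than 90% C57BL/6. Every mouse, controls included, carried the reporter IRES-tauGFP behind Chrna7, the gene of the nicotinic α7 receptor (genotype Chrna7-IRES-tauGFP, termed α7G). The mutant mice carried in addition the point mutation E260A in that gene (Chrna7-E260A-IRES-tauGFP, termed α7E260A:G), which limits the calcium current of the receptor in every cell that makes it. Mice of each genotype breathed room air as controls or side-stream cigarette smoke (CS) for 4 months, on 5 days of each week. There were 8 libraries, 1 from males and 1 from females in each of 4 groups. Lungs were lavaged, the trachea was removed, and cells bearing CD45 were depleted, so that epithelial cells were enriched. The sources used here do not state how many mice went into a library or that libraries came from separate animals. The p-values therefore measure only the spread between these libraries, and sex cannot be told apart from the individual library within a group.

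Club cells line the small airways, where they secrete protective proteins into the airway fluid and metabolize inhaled chemicals. Secretoglobins are small secreted proteins, and Scgb1a1 (uteroglobin) is the classical club cell product. Scgb3a1 and Scgb3a2 are related secretoglobins of the airway, and Scgb3a2 is a known target of the lung transcription factor NKX2-1. Hp encodes haptoglobin, a secreted protein that binds free hemoglobin and belongs to the acute phase response. Cyp2f2 encodes a cytochrome P450 that is known for the bioactivation of naphthalene in club cells, and Cbr2 encodes a carbonyl reductase of the lung. The comparisons ask whether these secretory products and enzymes differ with the α7 genotype and with CS, and whether both kinds of gene move alike.

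In the mm9 genome build of the counts, Scgb1a1 (ENSMUSG00000024653.2) lies on the minus strand at chr19:9158126-9162448. Scgb3a1 (ENSMUSG00000064057.6) lies at chr11:49477112-49478620 on the plus strand, and Cbr2 (ENSMUSG00000025150.4) on the minus strand of the same chromosome at chr11:120590803-120593428. Hp (ENSMUSG00000031722.9) is at chr8:112099030-112103072 on the minus strand. Cyp2f2 (ENSMUSG00000052974.7) is at chr7:27904928-27918679 on the plus strand, on the chromosome that also carries Chrna7 (chr7:70243578-70357455). Scgb3a2 is ENSMUSG00000038791.7. Counts cover the coding sequence (CDS) only, which is 288 bases long in Scgb1a1, 337 in Scgb3a1, 438 in Scgb3a2, 732 in Cbr2, 1041 in Hp and 1473 in Cyp2f2. The non-coding transcript Gm15883 overlaps Cyp2f2, and its annotation has no CDS to count. The secretoglobins thus have the shortest coding sequences of the group, which bears on a scaling given with the results.

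RefSeq promoter windows of build GRCm38.p6, from 250 bases before to 50 after the transcript start, were at hand for 3 of the 6 genes, 1 secretoglobin and both enzymes. They are shown as the windows of a secretory product and of the enzymes, the kinds of gene that the results set side by side. Scgb3a1 is at chr11:49663345-49663644 (plus strand), Cyp2f2 at chr7:27119705-27120004 (plus strand) and Cbr2 at chr11:120731972-120732271 (minus strand), each written 5′ to 3′. Capitals mark matches to an NKX2-1 motif (CTCAAG on either strand) and to a C/EBP motif (TTNNGNAA, either strand).
Scgb3a1: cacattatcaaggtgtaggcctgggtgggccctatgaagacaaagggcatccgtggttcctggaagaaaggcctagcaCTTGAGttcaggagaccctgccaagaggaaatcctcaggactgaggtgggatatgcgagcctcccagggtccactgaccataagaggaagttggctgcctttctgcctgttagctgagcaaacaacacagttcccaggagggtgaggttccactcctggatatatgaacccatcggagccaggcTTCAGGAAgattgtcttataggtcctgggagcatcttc
Cyp2f2: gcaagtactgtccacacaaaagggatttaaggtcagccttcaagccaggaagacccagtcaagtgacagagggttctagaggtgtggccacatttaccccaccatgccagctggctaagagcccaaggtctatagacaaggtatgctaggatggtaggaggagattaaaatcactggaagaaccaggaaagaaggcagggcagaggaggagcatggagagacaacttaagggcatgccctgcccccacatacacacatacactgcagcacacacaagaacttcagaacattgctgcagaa
Cbr2: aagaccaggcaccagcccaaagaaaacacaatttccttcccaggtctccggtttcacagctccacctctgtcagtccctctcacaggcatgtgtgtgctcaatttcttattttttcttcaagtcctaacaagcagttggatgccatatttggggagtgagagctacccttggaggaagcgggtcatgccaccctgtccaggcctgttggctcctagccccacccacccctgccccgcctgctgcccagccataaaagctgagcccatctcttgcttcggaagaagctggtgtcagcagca
The Scgb3a1 window held 1 match to the NKX2-1 letters, on the minus strand at position -172 from the start, and 1 match to the C/EBP letters at position 13. These letters occur in 15.9% and 40.7% of all 32851 windows of this length, respectively, so either match is a description and not a site. Neither motif was found in the windows of Cyp2f2 and Cbr2. The FOXA letters TNTTTAC, found in 12.4% of all windows, matched none of the 3 on either strand. The same was true of the antioxidant response element TGACNNNGC (12.4%), the xenobiotic response element GCGTG (32.4%) and the TATA box TATAAA (13.6%).

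Scgb1a1 was the gene with the highest level per kb of CDS among the 7190 tested genes in every library. Per kb, its level was between 36293 and 201668 RPM (reads per 1000000 counted on CDS), and it took from 1.05% to 5.81% of all counts of a library. The levels of Scgb3a2 and Cbr2 per kb were next, at 2315 to 11837 and 4025 to 9617 RPM per kb, and the range of Cbr2 lay within that of Scgb3a2. Scgb3a1 followed at 1414 to 12006 RPM per kb and Cyp2f2 at 1360 to 3131 RPM per kb, and Hp was the lowest of the 6 in every library, at 599 to 1652 RPM per kb. Among all tested genes Scgb3a1 ranked between 5 and 37 and Hp between 52 and 169. Another secretoglobin in the files, Scgb1c1, had only 7 to 104 counts and was not tested. Totals of counted reads were between 8020726 and 10944100 per library. The widest 95% Wilson interval of a share of one of the 6 genes spanned 0.0308 percentage points, and the lowest count was 3910, intervals that cover counting error only. Chrna7 had 0 counts in 7 libraries and 4 in the male α7E260A:G control, and 0 counts allow a level of up to 0.27 to 0.37 RPM at these depths. It could not be compared between groups, and CDS counts do not show the E260A substitution, so the genotype labels could not be checked here.

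**Figure D1:**
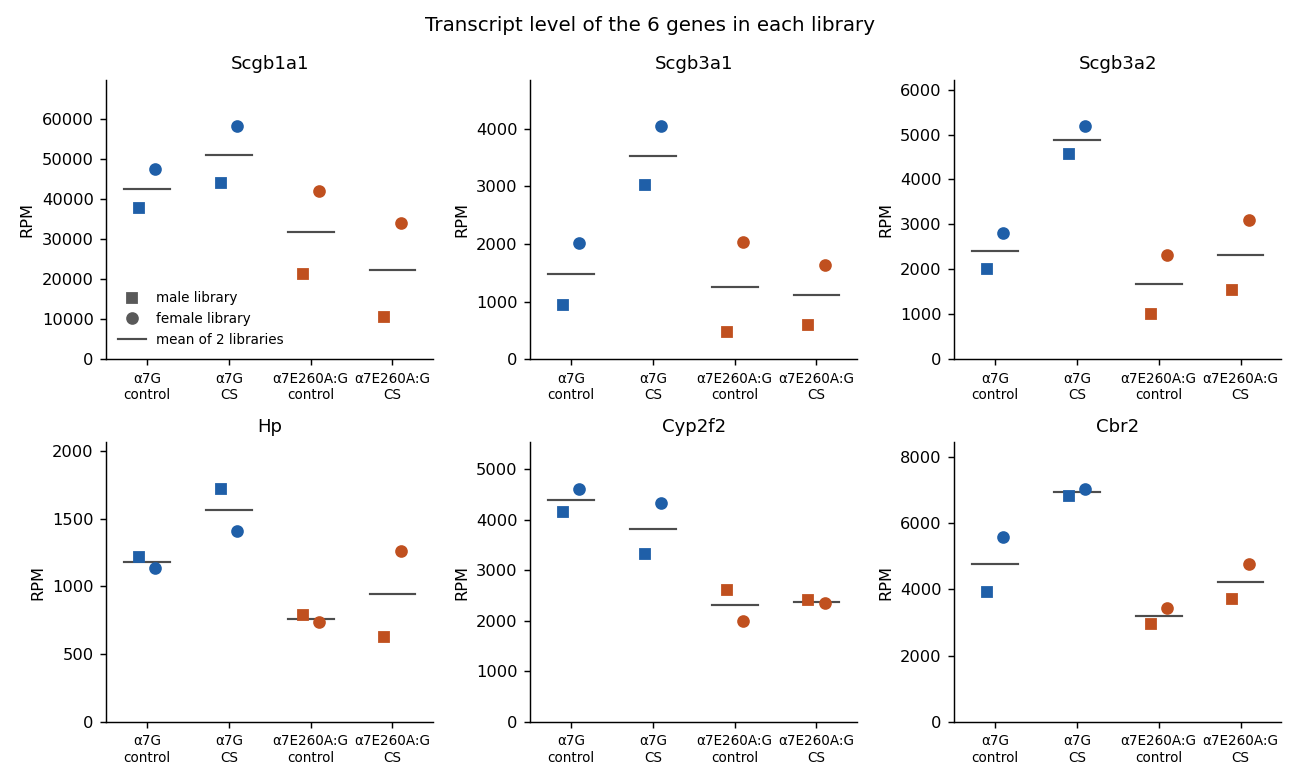
Level of each of the 6 genes in RPM (vertical axis, linear from 0) in the 4 groups, with squares for male and circles for female libraries and a line at the mean of the 2 libraries. Cyp2f2 is the only gene whose 4 α7E260A:G libraries, at 2003 to 2607 RPM, all lie below the 4 α7G libraries, at 3316 to 4613 RPM.

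Between the genotypes, all 6 genes had a lower mean level in α7E260A:G than in α7G, with ratios of the means from 0.474 in Scgb3a1 to 0.636 in Cbr2. None of the 6 passed the test for the genotype. The enzyme Cyp2f2 came nearest and was the only gene whose genotypes did not overlap. Because these are bulk samples, fewer cells of a type and less RNA per cell cannot be told apart.

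Scgb1a1 was measured in the α7G controls at 37684 RPM (male) and 47304 RPM (female), and at 43965 and 58080 RPM in the α7G CS libraries. In the α7E260A:G controls it was 21285 RPM (male) and 41907 RPM (female), and 10452 and 33884 RPM after CS. The female α7E260A:G control lay above the male α7G control, so the genotypes overlapped in this single step. The mean was 46758 ± 8537 RPM in α7G and 26882 ± 13857 RPM in α7E260A:G (SD, n = 4 each), with an exact two-sided permutation p of 0.0571. The log2 fold-change was -0.69 ± 0.51 (SE) with a p of 0.715 in the quasi-likelihood test of edgeR, adjusted after Benjamini and Hochberg over 7190 genes.

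Scgb3a1 was 936 RPM (male) and 2012 RPM (female) in the α7G controls, and 3021 and 4046 RPM after CS. In α7E260A:G it was 476 and 2038 RPM in the controls and 597 and 1634 RPM after CS. Scgb3a2 had 2014 and 2806 RPM in the α7G controls and 4575 and 5185 RPM after CS, against 1014 and 2317 RPM in the α7E260A:G controls and 1532 and 3093 RPM after CS. In both secretoglobins the 2 α7G CS libraries lay above all others, while the control libraries of the genotypes were interleaved. Their exact permutation p was 0.143 for each, and edgeR gave log2 fold-changes of -0.80 ± 0.61 and -0.68 ± 0.42 (SE) with adjusted p of 0.728 and 0.620. Haptoglobin transcripts (Hp) stood at 1220 and 1138 RPM in the male and female α7G controls and at 1720 and 1410 RPM after CS. In α7E260A:G they stood at 788 and 736 RPM in the controls and at 623 and 1265 RPM after CS. A single library, the female α7E260A:G CS library, reached the range of α7G. The difference in Hp had an exact permutation p of 0.0857 and an edgeR log2 fold-change of -0.59 ± 0.28 (SE, adjusted p 0.493).

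Cyp2f2 in the α7G controls was 4166 RPM (male) and 4613 RPM (female), and after CS 3316 and 4327 RPM. The α7E260A:G libraries had 2607 and 2003 RPM as controls and 2406 and 2358 RPM after CS. The highest α7E260A:G library was therefore below the lowest α7G library, with means of 2344 ± 251 and 4105 ± 558 RPM (SD, n = 4 each). The exact permutation p was 0.0286, the smallest that 70 arrangements can give, and 0.351 after Benjamini-Hochberg adjustment over all 7190 genes. In edgeR the log2 fold-change of Cyp2f2 was -0.75 ± 0.19 (SE) with an unadjusted p of 0.0055 and an adjusted p of 0.160. Cbr2 had 3913 and 5602 RPM in the α7G controls, 6835 and 7040 RPM in α7G after CS, 2946 and 3451 RPM in the α7E260A:G controls and 3719 and 4758 RPM in α7E260A:G after CS. Only the male α7G control and the female α7E260A:G CS library crossed. Its exact permutation p was 0.0571, with an edgeR log2 fold-change of -0.56 ± 0.26 (SE, adjusted p 0.479).

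**Figure D2:**
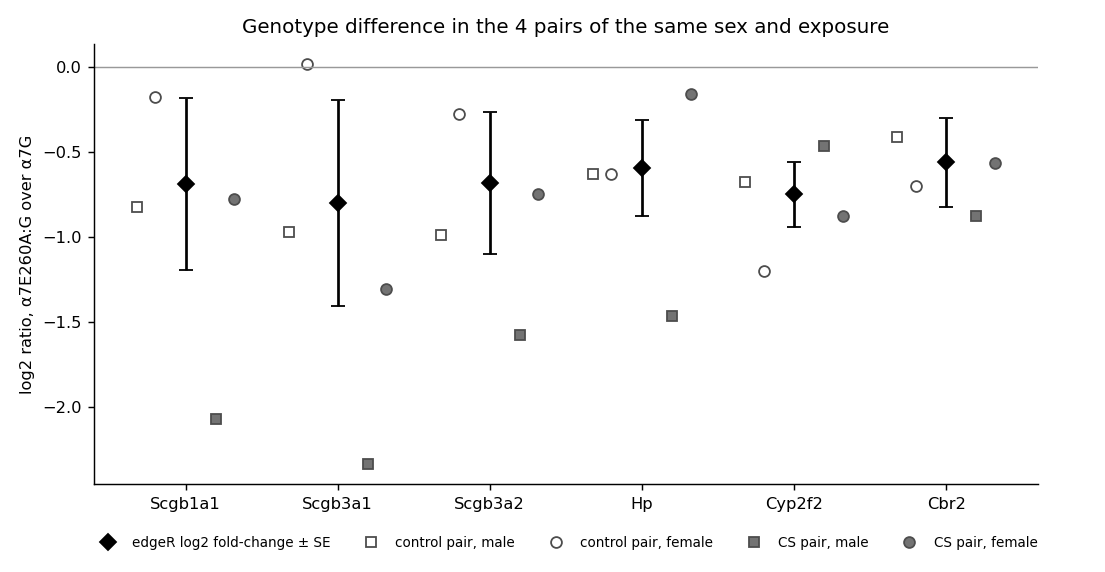
Log2 ratio of α7E260A:G over α7G (vertical axis) for each gene, in RPM for the 4 sex- and exposure-matched pairs (open symbols control, filled symbols CS, squares male, circles female), with the edgeR log2 fold-change and its SE as a diamond. Of the 24 values, 23 lie below 0, the exception being the female control pair of Scgb3a1. All genes were read in the same 4 pairs of libraries, so the 24 values are not independent. Counting of matched pairs was chosen after seeing the data, and 15.0% of all genes were lower in 4 of 4 pairs. The male CS pair reaches -2.34 in Scgb3a1 and -2.07 in Scgb1a1.

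With edgeR, 0 of the 6 genes passed an adjusted p of 0.05 for the genotype, as did 0.0834% of all tested genes. At an unadjusted p under 0.05, 1 of the 6 (Cyp2f2) was lower in α7E260A:G, against 4.78% of all genes in that direction. DESeq2 also called Cyp2f2 alone, with an adjusted p of 0.0011, while it called 2.2% of all genes lower. The RPM ranges of the genotypes did not overlap in 1 of 6, compared with 5.15% of all genes lower in α7E260A:G. In 4 of 4 pairs matched by sex and exposure, 5 of 6 genes were lower in α7E260A:G, and 15.0% of all genes were. This count of matched pairs was chosen after seeing the data. The median log2 fold-change of the 6 genes was -0.69, and that of all tested genes was 0.04.

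The libraries differed in how strongly their deviation depended on CDS length. The slope of the log2 deviation on log2 CDS length was 0.41 in the male α7E260A:G control but -0.24 in its female counterpart, and 0.23 in the male α7G control, -0.24 in the male α7G CS and -0.20 in the female α7G CS library. With this dependence removed by an offset fitted for each library, edgeR called Cyp2f2 (log2 fold-change -0.74, adjusted p 0.0215) and Scgb3a2 (-0.78, adjusted p 0.0297) lower in α7E260A:G, 2 of 6 where 2.6% of all genes were called lower. In the corrected values 5 of 6 genes did not overlap between the genotypes, all but Scgb1a1, compared with 7.94% of all genes, and 6 of 6 were lower in 4 of 4 pairs, compared with 19.4%. When sex was a block beside the length offset, 4 of 6 were called, with 4.02% of all genes called lower. Over 15 alternative settings the adjusted p of Cyp2f2 ran from 0.0011 to 0.551 and that of Scgb3a2 from 0.0062 to 1.00, and in each setting the log2 fold-change of each of the 6 genes for the genotype was below 0.

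The levels of other cell markers moved with the genotype. Markers of the alveolar type II (AT2) cell, which makes surfactant, summed to 19372 to 29313 RPM in α7G and to 4536 to 14199 RPM in α7E260A:G over 8 genes, and all 8 had a log2 fold-change below 0. Markers of the alveolar macrophage, a cell that CD45 depletion should remove, summed to 11218 to 17973 RPM in α7G and to 26050 to 41808 RPM in α7E260A:G, with all 8 measured genes above 0. In the main edgeR fit the median log2 fold-change of all tested genes was 0.04, with quartiles of -0.13 and 0.24. No list had a gene called after adjustment in this fit. The 5 general epithelial genes (Epcam, Cdh1, Krt8, Krt18 and Krt19) overlapped between the genotypes in their summed level, at 1213 to 1886 and 1002 to 1521 RPM. Singly, 4 of the 5 had a log2 fold-change below 0, with a median of -0.71, and 3 were lower at an unadjusted p of less than 0.05. With sex as a block beside the length offset, edgeR called 8 of 8 AT2, 3 of 4 tested alveolar type I and 3 of 5 general epithelial genes lower in α7E260A:G, and 8 of 8 alveolar macrophage genes higher. In that fit 4.02% of all genes were called lower and 5.3% higher. Per RPM of these epithelial genes, Cyp2f2 had 2.72 ± 0.71 RPM in α7G and 1.997 ± 0.421 RPM in α7E260A:G (SD, n = 4 each), and none of the 6 genes was free of overlap on that scale. The scale used RPM not corrected for CDS length, and overlap in corrected values on it is not given here. Scgb1a1 stood at 30.4 ± 5.5 and 23.3 ± 13.9 RPM per RPM of epithelial genes, and Cbr2 at 3.72 ± 0.51 and 3.09 ± 0.26. Since RPM are shares of a library, a higher share of macrophage transcripts leaves a lower summed share for the other transcripts. The part of this in the genotype difference was not tested. Ciliated cell markers overlapped, at 681 to 1168 RPM in α7G and 442 to 842 RPM in α7E260A:G. Goblet cell (36.4 to 340.2 and 17.6 to 237.7 RPM), basal cell (3.85 to 9.18 and 0.27 to 8.63 RPM) and neuroendocrine markers (2.13 to 7.91 and 2.31 to 16.5 RPM) were low in comparison. Alveolar type I markers did not overlap (410 to 485 and 158 to 339 RPM), whereas endothelial (434 to 523 and 193 to 481 RPM), fibroblast (848 to 1374 and 576 to 2015 RPM) and neutrophil markers (866 to 2431 and 962 to 3108 RPM) did.

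**Figure D3:**
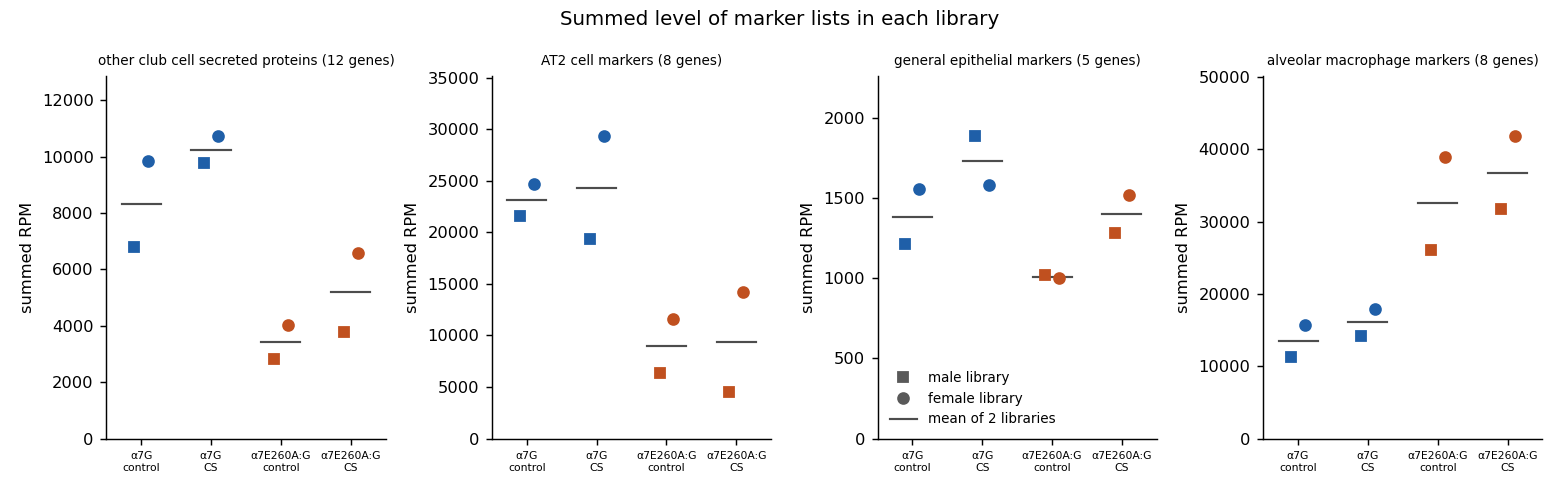
Summed RPM (vertical axis, linear from 0) of 4 gene lists in the 4 groups, with squares for male and circles for female libraries and a line at the mean of the 2 libraries. The AT2 list is lower and the alveolar macrophage list is higher in every α7E260A:G library than in any α7G library, whereas the general epithelial list overlaps.

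Other club cell products were read from lists of known genes. Of 12 further secreted proteins, 10 had a log2 fold-change below 0 for the genotype with a median of -1.05, against 0.04 over all tested genes. Their summed level was 6808 to 10718 RPM in α7G and 2812 to 6571 RPM in α7E260A:G. None was called after adjustment by edgeR, and 7 were lower at an unadjusted p under 0.05, as were the 4.78% of all genes given above. The lowest were Tff2, a trefoil peptide of mucus (log2 fold-change -1.73 ± 0.71, SE), and Bpifa1, an antimicrobial airway protein (-1.32 ± 0.35), and the highest were Retnla, a resistin-like secreted protein (0.46 ± 0.60), and lactoferrin, Ltf (0.00 ± 0.34), with edgeR adjusted p from 0.171 to 0.998. Bpifa1 ranged from 3191 to 5084 RPM in α7G and from 676 to 2909 RPM in α7E260A:G, ranges that did not meet, as in 5.15% of all genes. Its means of 4188.7 and 1692.5 RPM made up a large part of the summed level. Among 19 further enzymes of xenobiotic metabolism 18 were tested, of which 17 had a log2 fold-change below 0 with a median of -0.64, against the same 0.04 over all tested genes. None of these enzymes was called by edgeR, and 9 were lower at an unadjusted p under 0.05, against the same 4.78% of all genes. Paraoxonase, Pon1, was among the lowest, with a log2 fold-change of -1.20 ± 0.35 (SE), and the enzymes at the upper end were the retinaldehyde dehydrogenase Aldh1a1 at -0.05 ± 0.19 and the glutathione transferase Gstm1 at 0.30 ± 0.24. Of 11 regulators present in the files only 5 were abundant enough to test, and 0 were called. Elf3, an epithelial transcription factor, had a log2 fold-change of -0.66 ± 0.25 (SE) and Hes1, a Notch target, -0.57 ± 0.18, whereas Cebpb was at 0.22 ± 0.23 and the receptor Notch2 at 0.68 ± 0.44.

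CS in α7G went with higher values of 5 of the 6 genes, and the secretoglobins other than Scgb1a1 had the largest ratios. Both sexes had higher RPM of these 5 genes after CS, and 27.4% of all genes were likewise higher in both sexes. Scgb3a1 was 3.23 times its control level in males and 2.01 times in females, and Scgb3a2 was 2.27 and 1.85 times. The ratios were smaller in Cbr2 (1.75 and 1.26), Hp (1.41 and 1.24) and Scgb1a1 (1.17 and 1.23). Cyp2f2 was the exception, at 0.796 of the control level in males and 0.938 in females. None of these differences passed the adjusted quasi-likelihood test of edgeR, in which the log2 fold-change was 1.37 ± 0.87 (SE) for Scgb3a1, 1.13 ± 0.60 for Scgb3a2, 0.66 ± 0.37 for Cbr2, 0.53 ± 0.40 for Hp, 0.38 ± 0.71 for Scgb1a1 and -0.08 ± 0.27 for Cyp2f2, with adjusted p from 0.589 to 0.902. The percentage of all genes called in this comparison was 0.0%, and 0 of the 6 genes had an unadjusted p under 0.05 or were called by DESeq2. A fit of the 4 α7G libraries alone called 2 of 6, Scgb3a1 (adjusted p 0.0354) and Scgb3a2 (adjusted p 0.0231), where 7.5% of all genes were called higher after CS. Over 16 settings the adjusted p ran from 0.0354 to 0.984 for Scgb3a1 and from 0.0231 to 0.984 for Scgb3a2.

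These ratios moved with CDS length. The α7G controls had positive slopes of deviation on CDS length and both α7G CS libraries negative slopes, and the secretoglobins have the shortest coding sequences. The slopes thus went with exposure in α7G, so the correction also removes any CS change shared by genes of like CDS length. Such a change and a technical length dependence cannot be told apart here. In values corrected for CDS length, the CS ratio of Scgb3a1 in α7G was 1.53 in males and 1.39 in females and that of Scgb3a2 was 1.22 and 1.36. Scgb1a1 turned from above to below its control level, with corrected ratios of 0.512 and 0.819. The corrected ratios of Cbr2 were 1.21 and 1.04 and those of Hp 1.16 and 1.12, so 4 of 6 genes were above 1 in both sexes, and 19.4% of all genes did. Cyp2f2, with the longest coding sequence, was hardly moved, at 0.777 and 0.932.

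**Figure D4:**
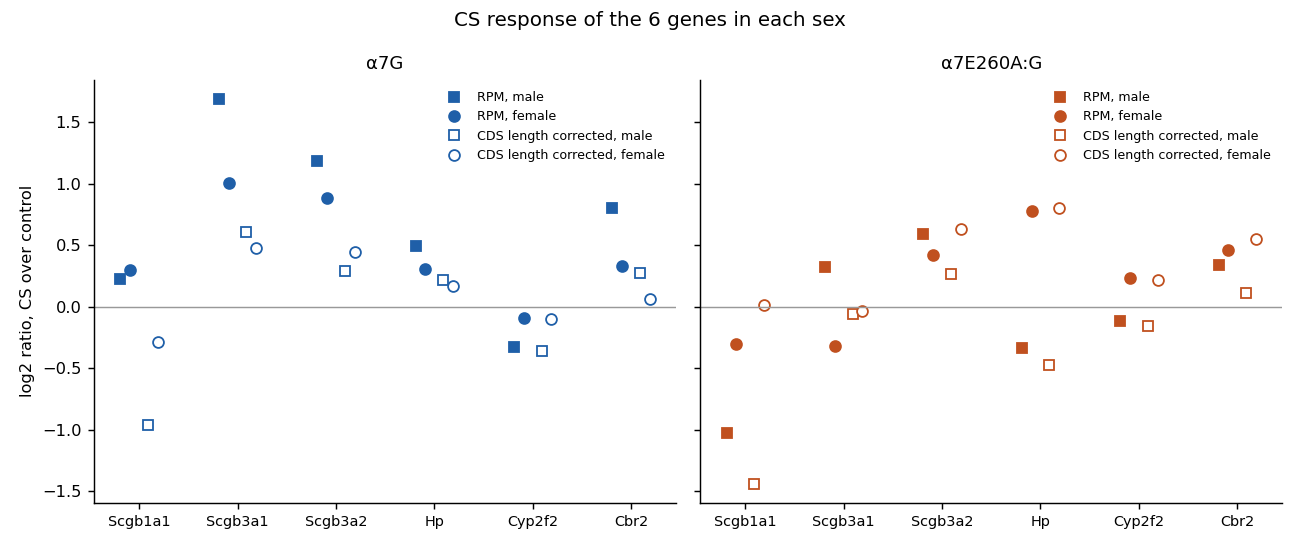
Log2 ratio of CS over control (vertical axis) for each gene in α7G (left) and α7E260A:G (right), for the male (squares) and female (circles) libraries, from RPM (filled) and from values corrected for CDS length (open). In α7G the filled symbols of Scgb3a1 and Scgb3a2 lie between 0.89 and 1.69 and their open symbols between 0.29 and 0.61, and Scgb1a1 crosses 0 with the correction.

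In α7E260A:G the values after CS did not share a direction. Scgb1a1 was 0.491 of the control level in males and 0.809 in females, while Scgb3a2 was 1.51 and 1.33 times and Cbr2 1.26 and 1.38 times the control level. Scgb3a1 (1.25 and 0.801), Hp (0.792 and 1.72) and Cyp2f2 (0.923 and 1.18) had opposite directions in the sexes. The log2 fold-changes in edgeR were -0.60 ± 0.72 (SE) for Scgb1a1, -0.33 ± 0.85 for Scgb3a1, 0.35 ± 0.59 for Scgb3a2, 0.31 ± 0.37 for Cbr2, 0.26 ± 0.40 for Hp and -0.02 ± 0.27 for Cyp2f2, each with an adjusted p of 1.00. No gene of the 6 was called, nor at an unadjusted p under 0.05 nor by DESeq2, and 0.0% of all genes were called. Of all 6 genes only Scgb1a1 was higher after CS in both sexes of α7G and lower in both of α7E260A:G, as were 2.18% of all genes. In corrected values this pattern was absent, with ratios of 0.368 and 1.01 for Scgb1a1 in α7E260A:G.

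Whether the genotypes responded unlike to CS was asked with an interaction term of the same model, coded as α7E260A:G minus α7G. The log2 difference was -1.70 ± 1.21 (SE) for Scgb3a1, -0.99 ± 1.01 for Scgb1a1, -0.79 ± 0.83 for Scgb3a2, -0.35 ± 0.52 for Cbr2, -0.27 ± 0.56 for Hp and 0.06 ± 0.38 for Cyp2f2, with edgeR adjusted p of 0.997 to 0.998. The genes were thus not shown to respond differently, and the errors of the secretoglobins leave room for a large difference in either direction. Again 0 of 6 genes were called (0 at an unadjusted p under 0.05, 0 by DESeq2), against 0.0% of all genes. Over both genotypes, the log2 fold-change after CS was 0.74 ± 0.42 (SE) for Scgb3a2, 0.52 ± 0.60 for Scgb3a1, 0.49 ± 0.26 for Cbr2, 0.40 ± 0.28 for Hp, -0.05 ± 0.19 for Cyp2f2 and -0.11 ± 0.50 for Scgb1a1, with edgeR adjusted p from 0.650 to 0.931. Here too 0 of 6 were called by either tool and 0 had an unadjusted p under 0.05, and 0.0% of all genes were called. The RPM of CS and control libraries overlapped in all 6 genes, while 2.07% of all genes did not overlap, and the exact permutation p was 0.171 for Scgb3a2, 0.200 for Cbr2, 0.314 for Hp, 0.343 for Scgb3a1, 0.771 for Cyp2f2 and 0.971 for Scgb1a1.

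To set secretory proteins against enzymes, the mean RPM per kb of CDS of the 3 secretoglobins was divided by that of Cyp2f2 and Cbr2 within each library. In the α7G controls this gave 11.3 (male) and 10.9 (female), and in the α7G CS libraries 9.90 and 11.98. For α7E260A:G it was 8.93 and 17.2 in the controls and 4.13 and 10.7 after CS. The 4 α7G libraries were close together, at 3.46 ± 0.11 on the log2 scale (SD, n = 4), whereas those of α7E260A:G were spread around them at 3.18 ± 0.86. The difference of -0.28 between the genotypes was smaller than the spread among the α7E260A:G libraries. In both exposures the male α7E260A:G library had a lower ratio than the female one. Corrected for CDS length, the ratio was 15.3 (male) and 11.96 (female) in the α7G controls, 7.83 and 10.1 in α7G after CS, 13.0 and 11.99 in the α7E260A:G controls and 5.04 and 8.92 in α7E260A:G after CS. The α7G libraries were then no longer close together (3.45 ± 0.40 on the log2 scale, against 3.19 ± 0.62 in α7E260A:G), and the male α7E260A:G control lay above the female one. After the correction the ratio was lower after CS than in the control in each genotype and sex, whereas without it the female α7G libraries took the opposite direction. Scgb1a1 dominates this ratio, and without it the values were 0.902 and 1.15 in the α7G controls, 1.68 and 1.90 in α7G after CS, 0.643 and 1.87 in the α7E260A:G controls and 0.785 and 1.47 in α7E260A:G after CS. On that scale the α7G CS libraries lay above the α7G controls, and the α7E260A:G controls enclosed both α7E260A:G CS libraries, and both held in corrected values (1.13 and 1.23, 1.41 and 1.67, 0.850 and 1.42, and 0.908 and 1.29 in the same order). Between the enzymes themselves, Cbr2 was 1.89 to 4.15 times Cyp2f2 per kb, with its highest value in the male α7G CS library and its lowest in the male α7G control. In each genotype and sex the ratio of Cbr2 to Cyp2f2 per kb was higher after CS, at 4.15 against 1.89 and 3.27 against 2.44 in α7G and at 3.11 against 2.27 and 4.06 against 3.47 in α7E260A:G. In corrected values, too, the CS ratio of Cbr2 exceeded that of Cyp2f2 in each of the 4 cases. This difference between the enzymes was not tested, and the share of gene pairs with the same pattern was not computed. The ratio of Hp to Cbr2 per kb stayed between 0.118 and 0.219 in all 8 libraries.

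**Figure D5:**
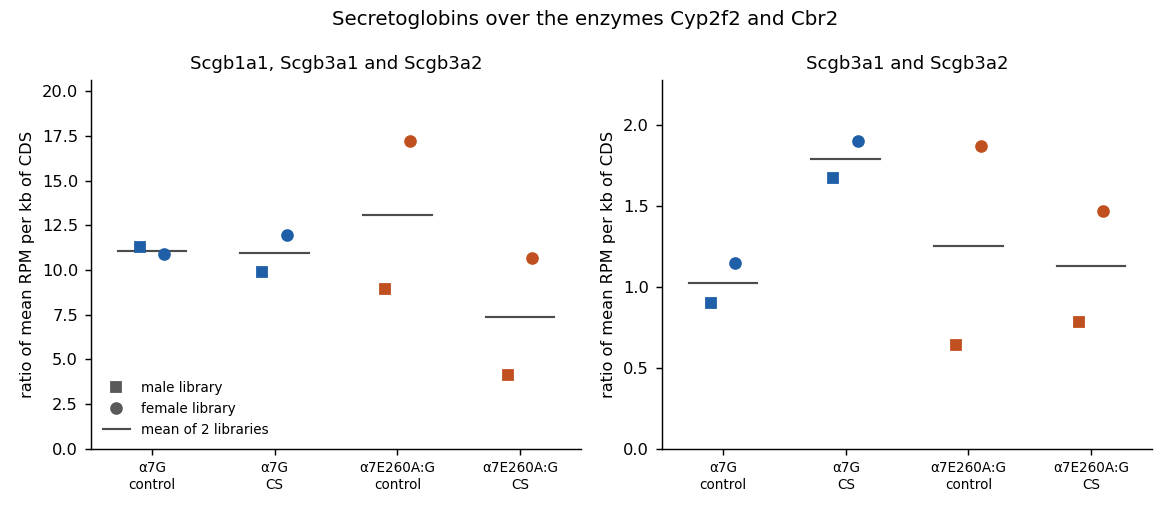
Ratio of the mean RPM per kb of CDS of the secretoglobins to that of Cyp2f2 and Cbr2 (vertical axis, linear from 0) in the 4 groups, not corrected for CDS length, with all 3 secretoglobins (left) and without Scgb1a1 (right), squares for male and circles for female libraries and a line at the mean of the 2 libraries. The α7G libraries lie between 9.90 and 11.98 on the left, and the α7E260A:G libraries between 4.13 and 17.2.

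In RPM, the secretoglobins and Cbr2 were also higher in the female than in the male library of each group. The share of all genes with this pattern was not computed, so the pattern is given as a description. In each of the 4 groups the female library had more of Scgb1a1 (1.26 to 3.24 times the male library), Scgb3a1 (1.34 to 4.28 times) and Scgb3a2 (1.13 to 2.29 times). Cbr2 was 1.03 to 1.43 times the male level, while Cyp2f2 (0.768 to 1.31) and Hp (0.820 to 2.03) took both directions. With CDS length corrected, Scgb3a1 was still higher in every female library, at 1.46 to 1.61 times, whereas Scgb1a1 ranged from 0.625 to 1.72, Scgb3a2 from 0.956 to 1.24 and Cbr2 from 0.692 to 1.23.

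Across the 8 libraries, which share a depth scale and the length dependence described above, the 6 genes were compared by the Pearson r of log2(RPM + 0.5), given as a description. Scgb3a1 and Scgb3a2 were most alike, with r = 0.957, followed by Scgb3a2 and Cbr2 with r = 0.931, an order that turned in length corrected values (0.880 and 0.901). Cyp2f2 stood apart from the secretoglobins, with r = 0.369 to 0.523, and in length corrected values these correlations were 0.711 to 0.811. The genes most like Cyp2f2 over all 7190 were Cyp4b1 (r = 0.984), Sult1a1 (r = 0.978) and Nkd1 (r = 0.975), with 0.959 to 0.983 in corrected values. Cyp4b1 and Sult1a1 encode a cytochrome P450 and a sulfotransferase. Those most like Scgb1a1 were Tff2 (r = 0.958), Blmh (0.952) and Zbp1 (0.951), with 0.687 to 0.778 after correction. Scgb3a1 was most like Ssr2 (r = 0.992), Mrps23 (0.977) and Mosc2 (0.976), and the correction left 0.465, 0.552 and 0.930. For Scgb3a2 they were Lactb (r = 0.986), Ppp1ca (0.983) and Naa10 (0.980), for Cbr2 Bsg (0.982), Snrnp40 (0.982) and Galk1 (0.976), and for Hp Aqp5 (0.973), Nucb2 (0.957) and Ccdc101 (0.956). After correction they were 0.75, 0.83 and 0.88 for Scgb3a2, 0.94, 0.94 and 0.95 for Cbr2, and 0.97, 0.94 and 0.77 for Hp, in the same order. Aqp5 encodes a water channel of alveolar type I cells and airway glands.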

How the data were processed

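RNA-Seq was analysed from CD45-depleted distal lung cells of 8 libraries, 4 groups of 1 male and 1 female library. The authors prepared stranded mRNA libraries, aligned reads with STAR to mm9 and counted reads on GENCODE M1 coding sequences with HTSeq (tool versions are not given in the sources used here). The deposited values are raw counts of 22756 genes per library, without normalization. Coordinates and CDS lengths came from GENCODE M1 (NCBIM37), in which identifier and symbol of all 22756 were the same as in the files. RPM were computed from each library's total count.

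Following the study, genes averaging 200 counts or more were kept (7190 genes), leaving out immunoglobulin, histocompatibility, Gm and ribosomal subunit names. Counts were tested with edgeR 4.0.16 (R 4.3.3, limma 3.58.1), using glmQLFit and glmQLFTest after TMM scaling on a model of 4 group means without sex, with Benjamini-Hochberg adjusted p under 0.05 as the threshold. The common dispersion was 0.0767. The SE given with an edgeR log2 fold-change was derived from the test, as its absolute value divided by the square root of the quasi-likelihood F statistic. The genotypes, CS in each genotype, their difference and CS over both genotypes were contrasted. Single genes were compared by exact permutation of 4 against 4 libraries. All 70 arrangements were used without keeping sex or the other factor matched, so the spread that goes with these entered the permutation p-values. The scripts were tested on simulated data. Python 3.11.15, numpy 2.4.6, pandas 2.3.3, scipy 1.17.1 and matplotlib 3.10.9 were also used.

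To correct for CDS length, the log2 deviation of a library was fitted on log2 CDS length with lowess (span 0.667) and the fit used as an offset. Other alternatives were DESeq2 1.42.0, library size scaling, filterByExpr, no filter, sex as a block, the 4 libraries of a genotype alone and each library left out in turn. In each of the 4 groups the 2 libraries differed by more than sampling noise (chi-square per degree of freedom 20.7 to 220.8). The genes and lists were chosen with earlier results of these data known. All 6 genes were named in every comparison, together with the 2 highest and 2 lowest by genotype log2 fold-change of each list of club cell genes, the 3 genes with the highest r to each of the 6, and Chrna7. Of the genes this rule takes, 1 is not reported here. Other marker lists were given by their sums. Scgb2a2, Scgb1b2, Scgb2b2, Cebpd and Siglecf were not used here.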

Additional observations from a re-analysis of the deposited data

Results flagged for a closer look

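The CS response of Scgb1a1 had opposite directions in the genotypes. Both α7G libraries after CS lay above the control of their sex and both α7E260A:G libraries lay below it, which drew attention to the gene. The interaction in edgeR was -0.99 on the log2 scale with an adjusted p of 0.997, so a difference between the genotypes was not shown. With 1 library left out it ran from -2.25 (female α7E260A:G CS) to -0.16 (female α7E260A:G control). Among all genes, 2.18% had the same pattern of directions. The pattern was absent from values corrected for CDS length. In the 24 sets of 4 libraries that were examined for a value far from the others, none was found.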

How the results depend on the processing

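The log2 fold-change of each of the 6 genes between the genotypes was below 0 in each of 15 settings, but how many were called depended on the setting. With the main fit 0 of 6 were called, against 1 with DESeq2, 2 with the CDS length offset and 4 with sex as a replicate block beside the offset, and 0 with the block alone. The 4 were Scgb3a1 (-1.04, edgeR adjusted p 0.0035), Scgb3a2 (-0.79, 0.0062), Cyp2f2 (-0.74, 0.0093) and Cbr2 (-0.54, 0.0334), and the same fit called 9 of the 12 other secreted proteins and 7 of the 18 other enzymes lower in α7E260A:G, against 4.02% of all genes. In values not corrected for CDS length, sex-matched libraries deviated together in 5 of 6 pairs of groups (r = 0.12 to 0.84) and not in the other (r = -0.05). The highest r was between the α7E260A:G groups. There the male and female slopes on CDS length were 0.41 and -0.24 in the controls and 0.19 and -0.20 after CS. A deviation shared by sex and a shared length dependence cannot be told apart in these r. The main model left sex out because the study averages male and female values. A deviation shared by libraries of the same sex thus stayed in its error. With the block alone, unadjusted edgeR p of the 6 genes for the genotype ran from 0.0028 (Cyp2f2) to 0.049 (Hp). The adjusted p ran from 0.080 to 0.319 in the same genes. For CS in α7G, 2 were called in a fit of that genotype's 4 libraries, and Scgb1a1 turned to -0.48 with the offset and -0.51 with the block and the offset. The genotypes did not overlap in 5 genes with the offset. Of 462 alternative values of single genes, 427 kept their direction and call, 26 reversed and 9 gained a call. The cause of these changes was not tested.

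Leaving out 1 library each time reversed some log2 values that had not passed a test. In α7G after CS, Cyp2f2 ran from -0.30 to 0.11. In α7E260A:G after CS the ranges were -1.87 to 0.23 for Scgb1a1, -1.40 to 1.39 for Scgb3a1, -0.40 to 1.34 for Scgb3a2, -0.49 to 0.76 for Hp, -0.13 to 0.075 for Cyp2f2 and -0.009 to 0.65 for Cbr2. For the difference between the CS responses they were -2.77 to 0.017 for Scgb3a1, -1.54 to 0.20 for Scgb3a2, -1.03 to 0.23 for Hp and -0.13 to 0.27 for Cyp2f2 (-0.69 to -0.012 for Cbr2, with no reversal), and for CS over both genotypes -0.74 to 0.30 for Scgb1a1, -0.013 to 1.38 for Scgb3a1 and -0.16 to 0.044 for Cyp2f2, beside 0.018 to 0.64 for Hp and 0.36 to 1.24 for Scgb3a2, which were not reversed. Values that kept their direction also moved by more than 1.5 times. Without the female α7E260A:G CS library the genotype value of Scgb1a1 was -1.32, that of Scgb3a1 -1.34, that of Scgb3a2 -1.06 and that of Hp -0.97, and without the male one -0.36, -0.50, -0.44 and -0.34. Without the female α7E260A:G control the 3 secretoglobins stood at -1.10, -1.66 and -1.18, and without the male one Scgb3a1 and Scgb3a2 at -0.46 and -0.43. Scgb3a1 was at -0.47 without the female α7G control. After CS in α7G, Scgb3a1 was 2.11 without the female and 0.90 without the male control, Cbr2 1.01 and 0.39, and Scgb1a1 0.63 and 0.20. Scgb1a1 was also 0.58 without the male and 0.16 without the female CS library of α7G. Genes free of overlap between the genotypes numbered 3 without the male α7G control (8.5% of all genes lower) or without the female α7E260A:G CS library (7.52%), 2 without the female α7E260A:G control (6.3%) and 1 without any other (6.02% to 7.27%). Between CS and control 2 were higher without the male α7E260A:G CS library (5.56% of all genes higher) and 0 without any other. The genotype difference of the secretoglobin to enzyme ratio was 0.10 without that male library and -0.59 to -0.24 without any other. The lowest count of the 6 genes, 3910, has a counting error of 1.60%. Counting of matched pairs and the secretoglobin to enzyme ratio without Scgb1a1 in length corrected values were chosen after seeing the data.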
